A study of Mus musculus with 18 samples.

Results

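Aminoacyl-tRNA synthetases join each amino acid to its tRNA, and this account describes MYC peaks at their genes in mouse liver tumours. The members are 36 genes chosen by name, 20 for enzymes of the cytosol and 16 for enzymes of the mitochondrion, out of 21887 protein-coding genes. All 36 were found by symbol in the RefSeq table of mm10. A gene is called bound in a library when the summit of a deposited peak lies within 1 kb of either end of its RefSeq span. The data are 9 chromatin immunoprecipitation libraries made with a MYC antibody from frozen tumours of FVB mice, 3 for each of 3 Arid1a genotypes. All mice carried LAP-tta and TRE-MYC, a liver-driven transactivator with a MYC transgene that turns on when doxycycline water is withdrawn. Homo tumours had Arid1afl/fl with Alb-cre and an age of about 100 days, Het tumours had Arid1afl/+ with Alb-cre at about 70 days, and WT tumours had both Arid1a alleles floxed, no Cre and an age of about 55 days. Age therefore cannot be told apart from Arid1a genotype in any comparison, nor can Cre in those with WT, while Homo and Het both carry Alb-cre. Alb-cre acts in albumin-expressing cells, so other cells of the tumour keep their Arid1a alleles. Tumours were collected at death. The design sets MYC occupancy at these genes against the number of Arid1a alleles open to deletion.

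Each amino acid has its own synthetase, and most have separate nuclear genes for the cytosolic and the mitochondrial enzyme. Glycyl- and lysyl-tRNA synthetase are exceptions, since Gars and Kars each give rise to both forms. Several cytosolic enzymes, among them those of Eprs, Lars, Iars, Mars1, Qars, Rars, Kars and Dars, sit in a multisynthetase complex held together by the scaffold proteins of Aimp1, Aimp2 and Eef1e1. MYC is a transcription factor that binds DNA as a dimer with MAX, preferentially at E-boxes such as CACGTG near transcription starts, and genes of protein synthesis are among its best known targets.

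The peak lists differed greatly in length, from 51 to 303 peaks in Homo, 378 to 1869 in Het and 92 to 4291 in WT. Background depth read from the peak values was 8.60 to 12.4 MYC reads per kb in Homo, 7.80 to 15.2 in Het and 11.1 to 14.8 in WT. The matched inputs held 3.37 to 3.69 reads per kb in Homo, 3.63 to 4.34 in Het and 4.04 to 6.27 in WT. In Homo replicate 2 and WT replicate 1 only 17.6% and 15.2% of peaks lay at a protein-coding gene end, against 43.9% to 64.4% in the other libraries. Both libraries stand apart in this way, and the counts below are also given without them where they move. A list of MYC peaks holds no RNA level, so neither the loss of Arid1a nor the liver label could be checked. Of 7 hepatocyte markers found, Apoa1 and Fgb had a peak in 1 library each, and 0 of 5 immune, 0 of 6 endothelial and stellate and 0 of 4 cholangiocyte markers had one. In whole tumour tissue, fewer cells with MYC at a gene and less MYC per cell cannot be told apart.

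Of the 36 synthetase genes 19 carried a MYC peak in some library, and 12 did so repeatedly. At least 1 library had a peak at 10 of 20 cytosolic and 9 of 16 mitochondrial genes, where 14.9% of all protein-coding genes had one. In at least 2 of the 9 libraries 7 cytosolic genes (35.0%) and 5 mitochondrial genes (31.2%) were bound, compared with 8.03% of all protein-coding genes. The recurrent cytosolic genes were Vars, Tars, Gars, Qars, Farsb, Aars and Iars. The recurrent mitochondrial genes were Ears2, Yars2, Mars2, Rars2 and Fars2. Without WT replicate 3, which bound 14.1% of all genes, the recurrent genes numbered 5 cytosolic and 3 mitochondrial. The share of all genes recurrent without that library is not given here, so this fall is not one of the members alone. With reads scaled down to the depth of the shallowest input and 1 p limit for all lists they numbered 4 and 3, beside 3.82% of all genes. Gars, Tars, Vars, Ears2, Mars2 and Yars2 were bound in at least 4 libraries, as were 3.03% of all genes, and Tars, Vars and Ears2 in at least 5, as were 1.19%. The median gene was bound in 0.5 libraries among the cytosolic and 1 library among the mitochondrial members, and in 0 among all protein-coding genes. No list test was run, because the members were chosen with earlier results of these data known.

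**Figure D1:**
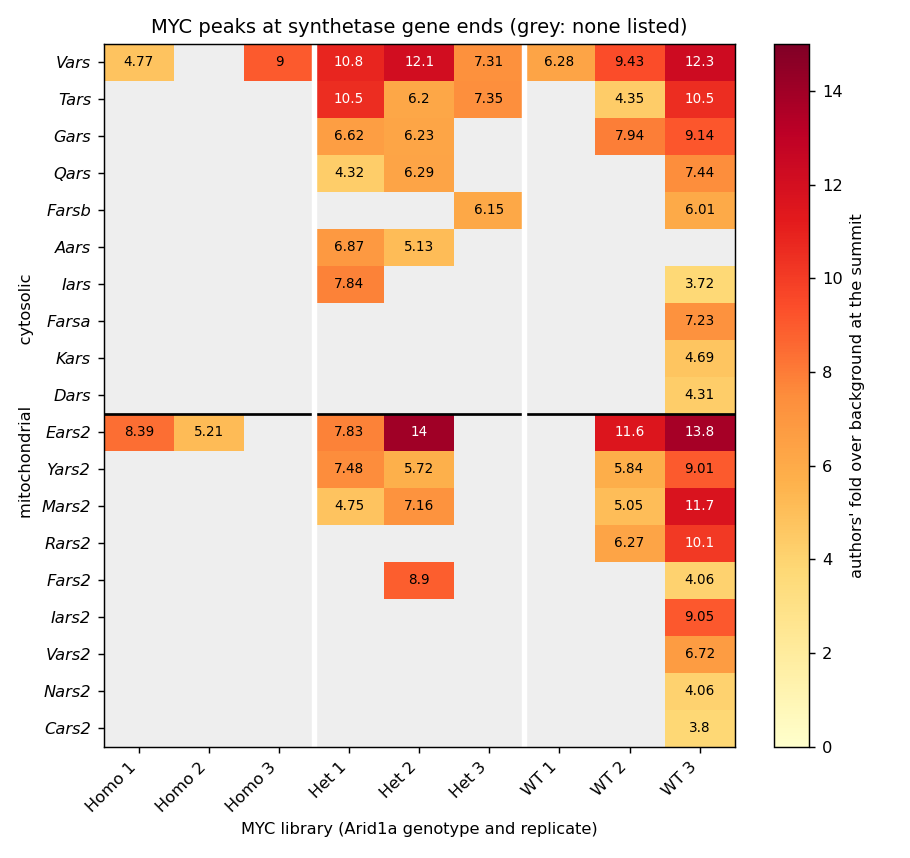
The authors' fold enrichment at the summit for the 19 synthetase genes with a peak at an end in any library, cytosolic above the line and mitochondrial below it, with libraries in columns by Arid1a genotype. Grey cells had no listed peak. Vars has a value in 8 libraries and Ears2 in 6, and 7 genes have a value in WT replicate 3 alone.

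Among the cytosolic enzymes Vars, which charges valine tRNA, was bound in the most libraries, 8 of 9, a breadth reached by 0.064% of all genes. The authors' fold over background at its summit was 4.77 and 9.0 in Homo replicates 1 and 3, with no peak in Homo replicate 2. It was 10.8, 12.1 and 7.31 in Het replicates 1 to 3 and 6.28, 9.43 and 12.3 in WT replicates 1 to 3. The ranges of the 3 genotypes overlapped, with 1 library missing in Homo. The number of reads at each summit, solved from the deposited fold and p, was 65 and 93 in Homo, 147, 76 and 61 in Het, and 70, 101 and 119 in WT. Between 4.30 and 11.8 reads were expected there from background. Vars lies on chromosome 17 from 35000907 to 35016329 (mm10), and its summits fell between 35001093 and 35001222, 186 to 315 bp inside the end with the lower coordinate. The gene D17H6S56E-5 has an end within 1 kb of the same summits, so the peak cannot be given to Vars alone. By rank within each list the Vars peak stood 72nd of 112 and 45th of 303 in Homo, 58th of 1713, 93rd of 1869 and 77th of 378 in Het, and 71st of 92, 93rd of 1567 and 83rd of 4291 in WT. The authors' −log10 q at these peaks was 6.64 and 15.1 in Homo, 28.2, 26.3 and 13.1 in Het, and 7.22, 27.6 and 43.3 in WT. The lists differ in length, so these ranks are not compared between libraries.

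Tars, the threonyl-tRNA synthetase gene (chromosome 15, 11383663 to 11399658), was bound in 5 libraries. Its fold was 10.5, 6.20 and 7.35 in Het replicates 1 to 3 and 4.35 and 10.5 in WT replicates 2 and 3. No peak was listed in the 3 Homo libraries or in WT replicate 1. Reads at the summit numbered 83, 43 and 39 in Het and 55 and 59 in WT, over 3.44 to 10.9 from background. No other protein-coding gene end lay within 1 kb. At the lowest background of a library, where the fold needed is highest, a listed peak required a fold of 5.21, 6.32 and 5.41 in Homo replicates 1 to 3 and 6.08 in WT replicate 1. The Tars fold of 4.35 lay under all of these, and those of 7.35 and 10.5 lay above all of them. That of 6.20 lay under 6.32 and above the others. These limits rest on the lowest −log10 p in each list, since the calling limit was not given. The −log10 q was 16.3, 8.55 and 8.88 in Het, at ranks 226, 1033 and 164, and 6.42 and 20.1 in WT, at ranks 1179 and 609.

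Gars, which serves both compartments (chromosome 6, 55038001 to 55079504), was bound in 4 libraries. Its fold was 6.62 and 6.23 in Het replicates 1 and 2 and 7.94 and 9.14 in WT replicates 2 and 3. Homo libraries, Het replicate 3 and WT replicate 1 had no listed peak. The reads behind these folds were 66 and 38 in Het and 47 and 52 in WT, on 3.94 to 6.99 expected reads. The −log10 q was 7.94 and 7.13 in Het, at ranks 937 and 1285, and 11.5 and 16.4 in WT, at ranks 547 and 885. Its summits lay 27 to 82 bp inside the annotated start, and no other protein-coding gene end was near.

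The other recurrent cytosolic genes were bound in fewer libraries. Qars, for glutaminyl-tRNA synthetase, had folds of 4.32 and 6.29 in Het and 7.44 in 1 WT library. Those summits lay beyond the distal end of Qars, 236 to 282 bp from the start of the neighbouring gene Qrich1. Aars, for alanyl-tRNA synthetase, had folds of 6.87 and 5.13 in Het only, and its summits lay 11 and 51 bp from the start of the exosome gene Exosc6, past the end of Aars. A further summit of the same place in WT replicate 3, with a fold of 6.05, fell just outside the 1 kb limit. Within 250 bp of a gene end Aars and Qars had no peak in any library. Farsb, for the beta subunit of phenylalanyl-tRNA synthetase, had a fold of 6.15 in Het replicate 3 and 6.01 in WT replicate 3. Iars, for isoleucyl-tRNA synthetase, had 7.84 in Het replicate 1 and 3.72 in WT replicate 3. Farsa, for the alpha subunit of the phenylalanine enzyme, Kars (lysine) and Dars (aspartate) had a peak in WT replicate 3 only, with folds of 7.23, 4.69 and 4.31. Of the 8 enzymes of the multisynthetase complex 2 (Iars and Qars) were recurrent and 4 were bound in any library, beside 8.03% and 14.9% of all genes, and the Qars summits are those near Qrich1. The remaining cytosolic genes, Cars, Eprs, Hars, Lars, Mars1, Nars, Rars, Sars, Wars and Yars, had no summit at an end in any library.

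Among the mitochondrial enzymes Ears2, which charges glutamate, led with 6 libraries, a breadth found in 0.521% of all genes. Its fold was 8.39 and 5.21 in Homo replicates 1 and 2, 7.83 and 14 in Het replicates 1 and 2, and 11.6 and 13.8 in WT replicates 2 and 3. Homo replicate 3, Het replicate 3 and WT replicate 1 had no listed peak. By the 1 kb rule Ears2 was 1 of 2 members bound in all 3 genotypes, Vars being the other. Eprs, not bound by that rule, had summits just before its annotated start in Homo replicate 3, Het replicate 2 and WT replicate 3. The Ears2 folds in Homo and Het overlapped, as did those in Het and WT. The Homo folds lay below the WT folds, with 1 library of each genotype missing. Reads at the summit numbered 65 and 64 in Homo, 106 and 88 in Het, and 99 and 125 in WT, against 4.30 to 10.5 from background. Ears2 runs on chromosome 7 from 122034162 to 122067094, and its 6 summits fell within 23 bp, from 122066990 to 122067013. The start of the neighbouring gene Ubfd1 was 185 to 208 bp away. In Homo replicate 2 Ears2 was the only member bound, at rank 40 of 51 with a −log10 q of 7.01, and in Homo replicate 1 it stood 16th of 112 with 13.6. Its ranks were 252 and 59 in Het, with a −log10 q of 15.6 and 32.5, and 68 and 57 in WT, with 31.8 and 48.9.

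Yars2, the mitochondrial tyrosyl-tRNA synthetase gene (chromosome 16, 16302965 to 16309640), was bound in 4 libraries, with folds of 7.48 and 5.72 in Het replicates 1 and 2 and 5.84 and 9.01 in WT replicates 2 and 3. Reads at these summits numbered 75 and 47 in Het and 48 and 69 in WT. The summits fell at 2 places, near the start in WT replicate 3 and 408 to 436 bp into the gene in Het replicate 1, Het replicate 2 and WT replicate 2. The −log10 q was 10.8 and 7.66 in Het, at ranks 565 and 1191, and 7.78 and 21.1 in WT, at ranks 984 and 542. Het replicate 1 had a second summit 79 bp inside the start, with a fold of 5.95. Mars2, the mitochondrial methionyl-tRNA synthetase gene (chromosome 1, 55237177 to 55240058), was bound in the same 4 libraries. Its fold was 4.75 and 7.16 in Het and 5.05 and 11.7 in WT, from 65 and 44 reads in Het and 42 and 46 in WT. The −log10 q was 5.04 and 9.89 in Het, at ranks 1424 and 825, and 6.02 and 18.9 in WT, at ranks 1231 and 702, and the summits ran from 40 bp before the start to 136 bp inside it. Neither gene had a listed peak in Homo, Het replicate 3 or WT replicate 1.

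The other mitochondrial genes with a peak were bound in 1 or 2 libraries. Rars2 (arginine) was bound in WT replicates 2 and 3 with folds of 6.27 and 10.1, at a summit 15 bp from the start of the replication gene Orc3. Fars2 (phenylalanine) had a fold of 8.90 in Het replicate 2 and 4.06 in WT replicate 3, at summits 379 and 10 bp from the start of Lyrm4. Iars2, Vars2, Nars2 and Cars2 were bound in WT replicate 3 only, at folds of 9.05, 6.72, 4.06 and 3.8. Aars2, Hars2, Lars2, Pars2, Sars2, Tars2 and Wars2 had no summit at an end. All 7 members bound in a single library, 3 cytosolic and 4 mitochondrial, had that peak in WT replicate 3, the longest list. Of all genes 6.89% were bound in 1 library only, and 6.26% in WT replicate 3 only.

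**Figure D2:**
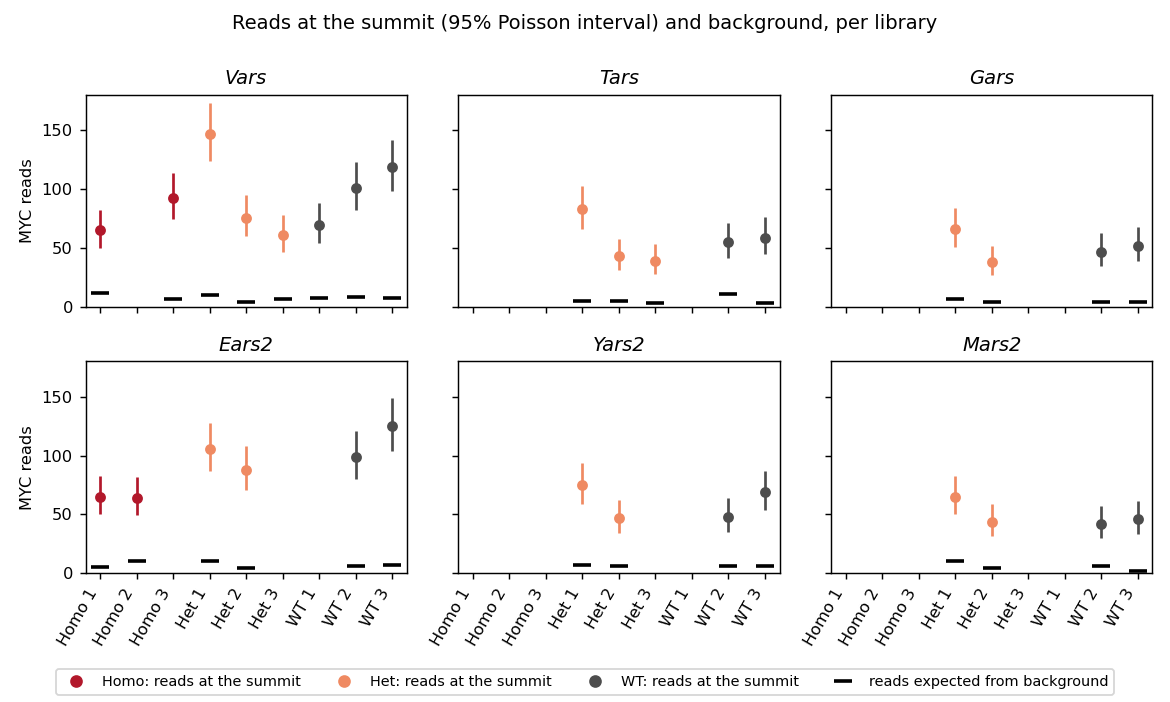
MYC reads at the summit with exact 95% Poisson intervals (points) and reads expected from the local background (black bars) for the 6 synthetase genes bound in at least 4 libraries, by library. A library without a point had no listed peak, which is not a count of 0 reads. Vars ranges from 61 to 147 reads and Ears2 from 64 to 125.

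Fewer synthetase genes were bound in Homo libraries than in most Het and WT libraries, and the same held for all protein-coding genes. In Homo replicates 1 to 3 the cytosolic genes bound numbered 1, 0 and 1, the mitochondrial 1, 1 and 0, and the share of all protein-coding genes bound was 0.324%, 0.0548% and 0.918%. In Het replicates 1 to 3 they numbered 6, 5 and 3 cytosolic and 3, 4 and 0 mitochondrial, with 5.58%, 6.14% and 0.854% of all genes. In WT replicates 1 to 3 they numbered 1, 3 and 9 cytosolic and 0, 4 and 9 mitochondrial, with 0.0731%, 4.86% and 14.1% of all genes. For cytosolic genes the Homo counts lay below every Het count and overlapped the WT counts at WT replicate 1. For mitochondrial genes the Homo counts overlapped both other genotypes.

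On average 0.667 ± 0.577 cytosolic genes were bound per Homo library, 4.67 ± 1.53 per Het library and 4.33 ± 4.16 per WT library (SD, n = 3 each). For the mitochondrial genes the means were 0.667 ± 0.577 in Homo, 2.33 ± 2.08 in Het and 4.33 ± 4.51 in WT. Of all protein-coding genes 0.433% ± 0.442 were bound per Homo library, 4.19% ± 2.9 per Het library and 6.35% ± 7.14 per WT library. The Homo mean was thus the lowest for all genes as well, and the differences below are not particular to the synthetases. The difference of Homo from Het was -4.0 cytosolic genes, larger than the pooled SD of 1.15, and -1.67 mitochondrial genes, against a pooled SD of 1.53. The cytosolic value was -2.0 with a window of 250 bp, -2.33 from the annotated start alone, and -2.33 with reads scaled to the shallowest input. The difference of Homo from WT was -3.67 for both classes, close to their pooled SDs of 2.97 and 3.21. The Homo minus WT difference was -1.33 for both classes without WT replicate 3, and without WT replicate 1 it was -5.33 cytosolic and -5.83 mitochondrial genes. Without both WT replicate 1 and Homo replicate 2 it was -5.0 and -6.0 genes. Het differed from WT by 0.333 cytosolic and -2.0 mitochondrial genes, less than the pooled SDs of 3.14 and 3.51. Without WT replicate 3 these became 2.67 and 0.333, and without WT replicate 1 they became -1.33 and -4.17. Without Het replicate 3 the mitochondrial difference of Homo from Het was -2.83 genes, without Het replicate 2 it was -0.833, and the mitochondrial difference of Het from WT was -0.833 without Het replicate 3.

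**Figure D3:**
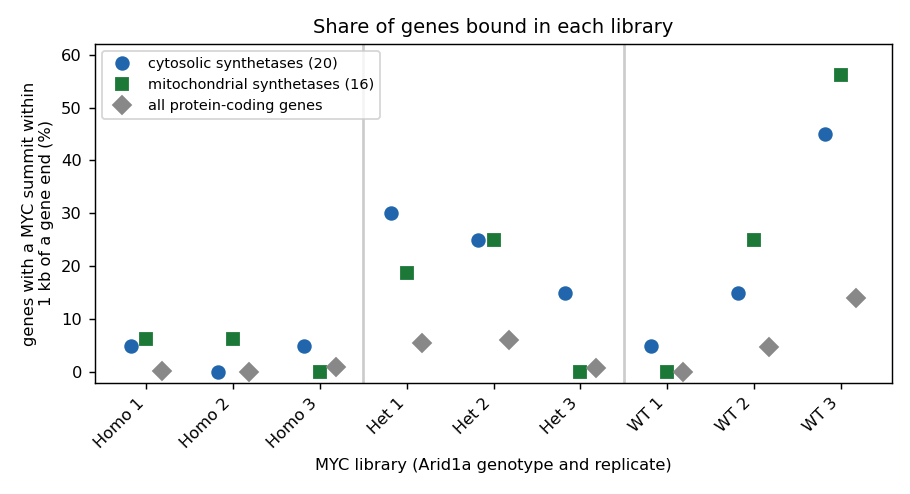
Percent of cytosolic synthetase genes (circles), mitochondrial synthetase genes (squares) and all protein-coding genes (diamonds) with a MYC summit within 1 kb of an end, in each library by Arid1a genotype. Members and all genes are highest in WT replicate 3, at 45%, 56.2% and 14.1%, and all 3 shares are at or under 6.25% in the Homo libraries and WT replicate 1.

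List length moved with these counts, while depth did so only in part. Every Homo input was shallower than every WT input. Het replicate 2, at 3.63 input reads per kb, bound 9 members, and WT replicate 1, at 4.04, bound 1. The 4 shortest lists, those of Homo and WT replicate 1, bound 1 or 2 members each. When reads were scaled down to the depth of the shallowest input, and a −log10 p of at least 10 was then required, the cytosolic genes bound were 1, 0 and 1 in Homo, 3, 4 and 2 in Het, and 0, 1 and 5 in WT. The mitochondrial genes bound were then 1, 1 and 0 in Homo, 2, 4 and 0 in Het, and 0, 1 and 5 in WT. All genes stood at 0.251%, 0.0548% and 0.649% in Homo, 2.66%, 4.44% and 0.580% in Het, and 0.0457%, 1.24% and 5.55% in WT. When each list was cut to its 51 highest peaks, Vars was bound in Homo replicate 3 and Ears2 in Homo replicates 1 and 2, and no member was bound in Het or WT. The share of all genes bound in the cut lists was 0.155%, 0.0548% and 0.101% in Homo replicates 1 to 3. It was 0.0959%, 0.119% and 0.0731% in Het and 0.0274%, 0.0228% and 0.119% in WT. The differences of Homo from both Het and WT then had the opposite sign, at 0.333 cytosolic and 0.667 mitochondrial genes, where absence is a lower rank in a list and not a missing peak. The part of list length and depth in the genotype differences beyond these values was not tested.

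By single gene, the bound state was compared between genotypes in a test whose lowest possible p, with 3 libraries per genotype, is 0.0357. After adjustment over 3264 genes such a p could not make a call unless most genes had it, so a count of 0 says nothing about a lack of difference. The exact permutation test over all 1680 assignments of the 9 libraries, with Benjamini-Hochberg adjustment over the 3264 genes bound at least once, called 0 genes, 0.0% of those tested, and 0 had an unadjusted p under 0.05. The lowest unadjusted p of any gene was 0.143, and Tars, bound in 0 of 3 Homo, 3 of 3 Het and 2 of 3 WT libraries, had that value (exact permutation p = 0.143, adjusted p = 1). No gene was bound in all Het and WT libraries and in no Homo library, a pattern that gives 0.0357. WT replicate 1 had 16 genes bound in all, and without it 201 genes had an unadjusted p under 0.05. Without Het replicate 3 there were 19, without WT replicate 3 there were 6, and without Homo replicate 3 and Homo replicate 1 there were 3 and 1. Aars, Gars, Qars, Tars, Mars2 and Yars2, 6 members, were bound in at least 2 Het and no Homo library, as were 3.04% of all genes. Gars, Tars, Mars2, Rars2 and Yars2 were bound in at least 2 WT and no Homo library, as were 3.70% of all genes. No member was bound in at least 2 Homo libraries and missing from Het or WT, nor was any other gene (0.0%). Among the members, Rars2 alone was bound in at least 2 WT and no Het library (0.649% of all genes), and Aars alone in at least 2 Het and no WT library (0.0868%). The Aars pattern rests on the window, since a WT replicate 3 summit near Exosc6, with a fold of 6.05, fell just outside it. Gars, Tars, Vars, Ears2, Mars2 and Yars2 were bound in at least 2 Het and at least 2 WT libraries, as were 2.94% of all genes.

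Neither class of synthetase was bound more often throughout the 9 libraries. The cytosolic share minus the mitochondrial share was -1.25, -6.25 and 5.0 percentage points in Homo replicates 1 to 3. It was 11.2, 0.0 and 15 points in Het and 5.0, -10.0 and -11.2 points in WT. Over the 9 libraries the mean difference was 0.833 ± 9.1 points (SD), which is smaller than the spread between libraries. By genotype the mean share was 3.33% ± 2.89 cytosolic and 4.17% ± 3.61 mitochondrial in Homo, 23.3% ± 7.64 and 14.6% ± 13.0 in Het, and 21.7% ± 20.8 and 27.1% ± 28.2 in WT (SD, n = 3 each). The difference within a genotype was not tested. Both signs occurred in Homo and in WT, while no Het library had a higher mitochondrial share as reported. With reads scaled to the shallowest input, Het replicate 2 bound 4 of 20 cytosolic and 4 of 16 mitochondrial genes. The mitochondrial share was then the higher, so the Het pattern depends on the setting. Per genotype, any Homo library had a peak at 1 cytosolic and 1 mitochondrial gene (1.03% of all genes), any Het library at 7 and 4 (7.85%), and any WT library at 9 and 9 (14.3%).

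Where the annotated start was known, most member summits lay close to it. Only summits within 1 kb of either gene end were counted, so closeness to an end is partly fixed by that rule. Of 52 member peaks 44 belonged to genes with an entry in the RefSeq promoter table, and 39 of these lay within 1 kb of the start, 33 of them within 250 bp. The median distance of the 39 was 74.0 bp, and it is not set here beside that of all gene-end peaks. The other 5 were the peaks beyond Aars and Qars. Of the 12 recurrent members, 6 (Vars, Qars, Aars, Ears2, Rars2 and Fars2) shared a summit with the end of another protein-coding gene within 1 kb, as did 32.0% of all recurrent genes. Farsb, Gars, Iars, Tars, Mars2 and Yars2 did not. Eprs and Wars2 show a limit of the span rule. Eprs, the glutamyl-prolyl-tRNA synthetase gene of the multisynthetase complex, had summits 32 to 47 bp before its annotated start in Homo replicate 3 (fold 7.91), Het replicate 2 (3.50) and WT replicate 3 (8.29), which lie 1580 to 1595 bp inside its longer RefSeq span. Wars2, for mitochondrial tryptophan, had summits 278 to 312 bp inside its annotated start in Het replicates 1 and 2 (folds 6.28 and 6.79) and WT replicates 2 and 3 (6.14 and 10.1). Counted from the annotated start, 5 of 13 cytosolic and 6 of 14 mitochondrial genes with an entry were recurrent, compared with 8.71% of all genes with one. Vars has no entry there.

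**Figure D4:**
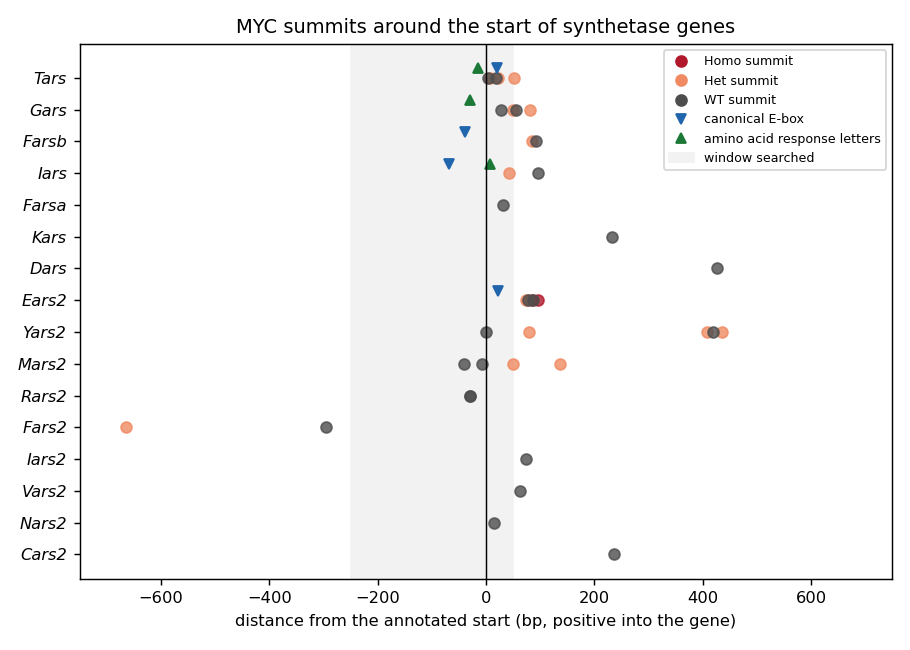
Distance of MYC summits from the annotated start, in bp and positive into the gene, for the 16 bound synthetase genes with a summit within 1 kb of it, one point per peak and library. Triangles mark CACGTG and TGATGNAA in the searched window (grey, 250 bases before to 50 after the start). The 6 Ears2 summits cluster 73 to 96 bp inside the start and the 5 Tars summits 3 to 52 bp inside it.

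The promoter sequences of 27 members (28 entries) were searched on both strands for the canonical E-box CACGTG, the related CACGCG and the letters TGATGNAA, which form part of the element through which ATF4 and C/EBP factors act on amino acid response genes. CACGTG stood in 4 of 13 cytosolic promoters (Tars, Farsb, Iars and Aars) and 1 of 15 mitochondrial entries (Ears2), that is 17.9% of entries (exact Clopper-Pearson 95% interval 6.06% to 36.9%), compared with 7.84% of all protein-coding promoters and 18.9% of those of recurrent genes. In the 250 bases before the start alone it stood in 3 of 13 cytosolic promoters and 0 of 15 mitochondrial entries, or 10.7% of entries, compared with 6.63% of all protein-coding promoters and 15.1% of those of recurrent genes. All 5 of these genes were among the 11 recurrent members with an entry, and 0 of the other 16 members had the letters. For Aars the bound end was the other one, far from this E-box. Each is shown in mm10 with the strand of the gene, 12 bases either side of the E-box in capitals, because these are the members in which the letters MYC prefers lie at the start.
Ears2 chr7:122067048-122067077, minus strand: cgcgaaggagccCACGTGtgtgtttctagt
Tars chr15:11399622-11399651, minus strand: tccgcctgtggcCACGTGgcgcacgcgcag
Farsb chr1:78488919-78488948, minus strand: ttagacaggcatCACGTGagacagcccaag
Iars chr13:49682049-49682078, plus strand: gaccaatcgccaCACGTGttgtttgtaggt
Aars chr8:111033684-111033713, plus strand: agtcaaccctgtCACGTGacactccatgtc

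The Tars E-box, which begins at base 20 after the start, lay a median of 14.5 bp from the 5 Tars summits. A CACGCG follows it at base 29. The Ears2 E-box begins at base 22, a median of 58.0 bp from the 6 summits, and those of Farsb and Iars stood 39 and 69 bases before the start, 125 and 136 bp from their summits at the median. The 100 bases before the start of Ears2 and Yars2, the leading mitochondrial members by number of libraries and then median fold, are shown for that reason and held none of the searched letters.
Ears2 chr7:122067087-122067186, minus strand: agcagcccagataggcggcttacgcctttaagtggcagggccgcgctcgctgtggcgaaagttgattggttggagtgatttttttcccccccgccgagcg
Yars2 chr16:16302865-16302964, plus strand: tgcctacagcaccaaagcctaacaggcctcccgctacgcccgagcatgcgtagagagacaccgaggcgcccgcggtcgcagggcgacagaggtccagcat

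CACGCG stood in 5 of 13 cytosolic promoters and 2 of 15 mitochondrial entries, compared with 12.1% of all protein-coding promoters and 30% of those of recurrent genes. It stood at 2 of the 11 recurrent members, Tars and Mars2, and at 5 of the other 16, Farsa, Iars2, Eprs, Mars1 and Yars. The letters TGATGNAA stood in 5 of 13 cytosolic promoters and 0 of 15 mitochondrial entries, compared with 3.60% of all protein-coding promoters and 2.51% of those of recurrent genes. The windows of 4 genes are shown because the classes of synthetase differ in these letters, in capitals and on the strand of the gene, where TTNCATCA is the same element read on the other strand.
Tars chr15:11399655-11399684, minus strand: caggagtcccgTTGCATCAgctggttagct
Gars chr6:55037960-55037989, plus strand: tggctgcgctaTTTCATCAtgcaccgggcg
Iars chr13:49682126-49682155, plus strand: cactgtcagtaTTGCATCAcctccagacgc
Yars chr4:129189895-129189924, plus strand: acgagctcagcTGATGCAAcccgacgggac

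Tars and Iars were among the genes that held both CACGTG and TGATGNAA. At Tars TGATGNAA began 15 bases before the start, a median of 29.5 bp from the summits of the 5 libraries. Gars, bound in 4 libraries, held TGATGNAA at 30 bases before its start and neither E-box form. A match of letters is a description of the sequence, and no match says only that these letters are not in the window searched.

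Other genes of tRNA charging and supply carried recurrent MYC peaks as well. Of the 3 multisynthetase scaffolds 2 were recurrent, Eef1e1 in 6 libraries (folds 5.64 to 19.4) and Aimp2 in 5 (5.75 to 14.9), each including 1 Homo library. Among 19 genes of tRNA maturation and export 8 were recurrent. They included Xpot, the tRNA exporter, bound in 8 libraries with folds of 4.15 to 32.5, and the RNase P subunit genes Rpp38 and Pop1 in 6 and Rpp25 in 5. Of 22 genes of RNA polymerase III and its factors, which transcribe tRNA, 8 were recurrent. They included the subunit gene Polr3d in 5 libraries (folds 6.0 to 12.8), and Polr3e, Polr3b and Gtf3a in 4. In amino acid supply 7 of 12 were recurrent, with Slc7a1, a cationic amino acid transporter gene, in 6 libraries (folds 6.50 to 18.4) and Shmt2, of mitochondrial serine metabolism, in 4. Synthetase-like and editing genes had 3 of 6, and mitochondrial charging accessories 3 of 8. These lists stand beside the same 8.03% of all protein-coding genes, and were also chosen with earlier results of these data known. In any Homo library 2 of 3 scaffolds, 4 of 19 maturation and export genes, 1 of 22 polymerase III genes, 1 of 12 supply genes, and none of the editing or accessory genes were bound, where 1.03% of all genes were. No gene of these lists had an adjusted exact permutation p for genotype other than 1, nor did any of the 3264 genes tested. The design leaves almost no room for a call, so this says nothing about a lack of difference.

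**Figure D5:**
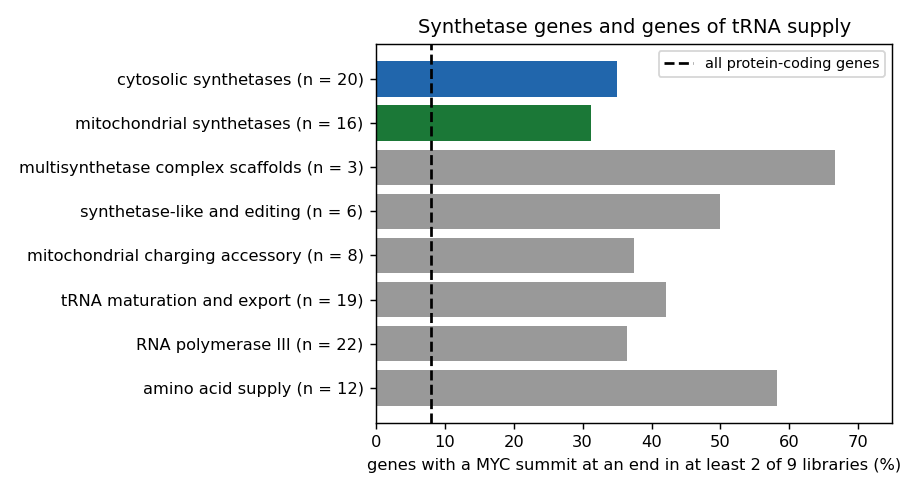
Percent of genes with a MYC summit within 1 kb of an end in at least 2 of 9 libraries, for cytosolic and mitochondrial synthetases and for other lists of tRNA charging and supply, with the number of genes in each. The dashed line is all protein-coding genes at 8.03%; each list stands to its right, from 31.2% for the mitochondrial synthetases to 66.7% for the 3 scaffolds.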

How the data were processed

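The submitters' processing notes name Bowtie2 2.2.3, Picard, MACS2 2.0.10.20131216, HOMER and mm10; the calling limit was not given in the sources used here. The deposited lists, 1 per MYC library, have the columns that MACS2 writes: the authors' fold over background (a ratio), their −log10 p and −log10 q, an integer score and the summit offset. Input libraries were not analysed here separately. Reads at a summit and the local background were solved from the authors' deposited fold and −log10 p, taken as the ratio of scaled reads plus 1 to background plus 1 and a Poisson tail; 99.0% of 10376 peaks had exactly 1 solution, and all 52 member peaks did. Intervals cover counting error only. Thinning multiplied reads and background by 1 factor per library and recomputed p.

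Python 3.11.15, pandas 2.3.3 and scipy 1.17.1 were used. Gene spans, promoters and printed sequences came from RefSeq for GRCm38.p6, the assembly of mm10. Each library counts as 1 replicate. The labels name no animals behind them, so the spread a p-value measures may be technical. The permutation test and the read solution were tested on simulated data. Members and lists were chosen with earlier results of these data known. Every member was accounted for, with values in every library for those bound in at least 4 libraries; of each other list, at most 4 genes bound in at least 4 libraries were named. The window of 1 further promoter match is not reported here.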

Additional observations from a re-analysis of the deposited data

How the results depend on the processing

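Settings covered windows of 250 bp and 5 kb, the annotated start alone, stricter limits, equal list length, peak overlap, each library left out and, added after the data were seen, thinning and the joint omission of WT replicate 1 and Homo replicate 2. Recurrent cytosolic genes, 7 as reported, numbered 4 with a −log10 q of at least 5, with a −log10 p of at least 10 and after thinning. They numbered 0 with each list cut to 51 peaks and 5 to 7 with 1 library left out. Of all protein-coding genes 8.03% were recurrent as reported, 6.9% and 6.15% at those q and p limits, 3.82% after thinning and 0.169% in the cut lists. Recurrent mitochondrial genes, 5 as reported, numbered 3 after thinning and 1 in the cut lists, and 3 to 5 with 1 library left out. The share of all genes recurrent with 1 library left out is not given. The cytosolic difference of Homo from Het, -4.0 as reported, was -2.0 with the 250 bp window and -2.33 after thinning. From the annotated start, over 13 of the 20 cytosolic genes, it was also -2.33. With 1 library left out this difference ran from -4.83 to -3.33. In the cut lists it turned to 0.333, as did Homo minus WT. The mitochondrial differences of Homo turned to 0.667 from both Het and WT. A gene outside a cut list can still have a peak further down the full list. Why these signs turned was not tested. The other differences moved by less than 1 pooled SD in each setting. The sign of the cytosolic difference of Het from WT turned in 7 of 17 settings, and that of cytosolic minus mitochondrial share in 7 of 19 (range -4.40 to 2.34). The gene test called 0 genes after adjustment in each of 20 settings, which its design fixes; unadjusted, 0 to 201 genes had a p under 0.05, the most without WT replicate 1. Labels share replicate numbers across genotypes, but same-numbered libraries correlated above 0.1 in only 3 of 9 pairs and best with their own number in 4 of 18 comparisons, so the numbers were not taken as pairs; with a replicate block the gene test again called 0, and the difference of Homo from Het was -4.0 ± 1.73 cytosolic and -1.67 ± 1.53 mitochondrial genes (SD of 3 paired differences). At the lowest background a listed peak needed a fold of 5.21 to 6.32 in Homo, 4.88 to 5.29 in Het and 4.37 to 6.08 in WT, so a gene with no listed peak is not shown to be unbound.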

Other observations

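Some peaks inside or beside synthetase genes lie outside the 1 kb limit. Within Eprs, 56954 to 56967 bp past its annotated start, a peak was listed in Het replicate 1 (fold 11.1, 81 reads against 4.09 expected), WT replicate 2 (7.48, 33 reads against 2.51) and WT replicate 3 (8.50, 33 reads against 2.15), with no protein-coding gene end within 1 kb. It was not listed in the Homo libraries, in Het replicates 2 and 3 or in WT replicate 1. Beyond the end of Dars a peak at the replication licensing gene Mcm6 was listed in WT replicates 2 and 3, with folds of 6.16 and 5.75.

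In WT replicate 3 the median fold of the 18 members bound was 7.34, compared with 6.72 over 2764 peaks at protein-coding gene ends. In Het replicates 1 and 2 the 9 members bound had medians of 7.48 and 6.29, compared with 6.41 and 7.03 over all gene-end peaks. In WT replicate 2 the 7 members bound had a median of 6.27, compared with 6.58 over 925 such peaks. Over all 9 libraries the members' median lay above that of gene-end peaks in 4 and below it in 5. In Homo replicates 2 and 3 and WT replicate 1 that median is the fold of 1 member. In Homo replicate 1 and Het replicate 3 it rests on 2 and 3 members.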
